A study of Mus musculus with 19 samples.

Results

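Open chromatin regions found in fetal lymphoid-primed multipotent progenitors (LMPP) and in none of 3 related populations numbered 2356 of 77133 merged regions (3.05%). They were chosen from the 4 deposited ATAC-seq peak lists, 1 each for fetal LMPP, fetal hematopoietic stem cells (HSC), adult LMPP and adult HSC: distinct peaks that shared at least 1 base were merged, and a merged region was kept when it held peaks of the fetal LMPP list alone. The same populations were profiled by RNA-seq in 11 libraries, 3 of fetal LMPP, 3 of adult LMPP, 2 of fetal HSC and 3 of adult HSC. Each peak list came from 2 ATAC-seq libraries of its population.

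All cells came from C57BL/6 mice with no genetic change or treatment named, from fetal liver at E14.5 (embryonic day) or from adult bone marrow at 12 weeks, so age and organ cannot be told apart. Every gate took viable cells that carried c-Kit and Sca-1 and lacked CD3, Gr1, B220 and Ter119. LMPP were then CD48+ CD150- Flt3+ and HSC were CD48- CD150+ Flt3-. The 2 adult gates also left out CD11b+ cells, a step the labels do not give for the fetal gates. The design text calls the libraries biological replicates, and the labels do not say how many animals were pooled.

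LMPP are progenitors downstream of HSC that have begun to transcribe lymphoid genes while they can still form myeloid cells. Fetal progenitors use a developmental program that includes the RNA-binding protein LIN28B, and they give rise to innate-like lymphocytes such as B-1 cells more readily than adult progenitors do. ATAC-seq marks open chromatin by where the Tn5 transposase can insert adapters, and open regions away from gene starts are often enhancers.

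The sequences of 4 promoters under regions found only in the fetal LMPP list are shown because their genes are called in the RNA tests below. They were chosen after the values were seen. Each is the 250 bases before the most upstream RefSeq start of the gene (GRCm38.p6), on the gene's strand and 5′ to 3′, and capitals mark matches to any of 17 short motifs searched on both strands. Set lies on chr2:30061746-30061995 (plus strand), Irgm2 on chr11:58214727-58214976 (plus strand), Mdga1 on chr17:29887883-29888132 (minus strand) and Procr on chr2:155750967-155751216 (plus strand). The open region covered all 250 bases at Set, Irgm2 and Mdga1, and 135 bases at Procr.
Set: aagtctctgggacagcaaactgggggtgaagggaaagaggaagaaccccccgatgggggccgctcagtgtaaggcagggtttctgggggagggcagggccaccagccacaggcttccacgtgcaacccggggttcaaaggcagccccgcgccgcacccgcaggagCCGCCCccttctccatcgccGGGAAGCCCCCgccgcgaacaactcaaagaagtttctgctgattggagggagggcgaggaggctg
Irgm2: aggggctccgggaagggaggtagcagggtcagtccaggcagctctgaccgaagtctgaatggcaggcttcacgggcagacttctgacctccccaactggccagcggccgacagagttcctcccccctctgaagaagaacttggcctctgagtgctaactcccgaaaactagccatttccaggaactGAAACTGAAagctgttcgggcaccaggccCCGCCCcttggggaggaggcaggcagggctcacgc
Mdga1: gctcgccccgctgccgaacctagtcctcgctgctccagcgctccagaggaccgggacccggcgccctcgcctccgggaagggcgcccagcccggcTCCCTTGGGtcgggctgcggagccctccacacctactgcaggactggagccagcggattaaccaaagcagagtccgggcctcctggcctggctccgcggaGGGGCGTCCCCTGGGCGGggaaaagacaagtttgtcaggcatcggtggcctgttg
Procr: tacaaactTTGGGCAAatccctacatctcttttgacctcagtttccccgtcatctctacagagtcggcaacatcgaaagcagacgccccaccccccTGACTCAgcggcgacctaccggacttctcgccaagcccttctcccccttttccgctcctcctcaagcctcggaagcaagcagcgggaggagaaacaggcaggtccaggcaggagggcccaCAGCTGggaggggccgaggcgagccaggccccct

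The Set promoter held a KLF/SP motif (GGGCGG, read here on the other strand) at bases -85 to -80 from the start, and overlapping matches to the NF-kappaB motif between -65 and -55. The Irgm2 promoter held an interferon regulatory factor (IRF) motif, GAAANNGAA, at -64 to -56 and a KLF/SP motif at -35 to -30. Mdga1 held EBF1 motifs (CCCNNGGGA) at -155 to -147 and at -49 to -41, the second overlapping an NF-kappaB match and a KLF/SP match. Procr held an E-box (CAGCTG) at -34 to -29, an AP-1 motif (TGANTCA) at -154 to -148 and a CEBP motif (TTGCNNAA) at -242 to -235. The open region at Procr covered only the last 135 bases before the start, so the AP-1 and CEBP matches lay outside it. Among all 32851 RefSeq promoter windows of 300 bases, a KLF/SP motif was present in 35.7%, E-box in 16.3%, CEBP in 10.8%, IRF in 8.56%, NF-kappaB in 8.46%, AP-1 in 7.81% and EBF1 in 6.56%. A match describes the letters in the window and is not a measured binding site.

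In all, 86 of the 2356 regions touched a RefSeq promoter window, which runs from 250 bases before to 50 bases after a start. They touched 102 windows of 90 genes. Of the 84 windows covered over at least 150 bases, the median GC content was 61.7%. It was 59.7% under regions of the fetal HSC list only and 54.3% under regions of the adult LMPP list only. Under regions shared by all 4 lists it was 62.3%, and in all promoters 52.7%. A CpG ratio (observed over expected CG pairs) of 0.6 or more was found in 47.6% of the 84 windows, in 44.4% of 297 windows under regions of the fetal HSC list only, in 28.1% of 185 windows under regions of the adult LMPP list only and in 78.6% under regions of all 4 lists. The KLF/SP motif was in 57.1% of the 84 windows, between its share in all promoters and the 68.5% under shared regions. The E-box was in 23.8% and the EBF1 motif in 13.1%. The GATA motif AGATAA was in 3.57% (3 windows), against 11.2% of all promoters and 4.998% under shared regions. Under regions of the fetal HSC list only, KLF/SP was in 51.9% of windows, the E-box in 17.5%, EBF1 in 8.42% and GATA in 11.1%. No microRNA hairpin, of 1005 with a position, lay under a region found only in fetal LMPP. The windows are few and no enrichment was tested.

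The regions were small and weak within their own list. Their median deposited signal value, the authors' own score for a peak, was 3.98 (middle 50% from 3.502 to 4.61), against 4.50 for fetal LMPP peaks shared with the fetal HSC list only, 4.73 for those shared with the adult LMPP list only and 6.45 for those in all 4 lists. Their median width was 357 bases and that of the peaks in all 4 lists 701 bases. The median −log10 q was 10.7, against 34.6 for peaks in all 4 lists, and 150 regions had a value under 5. These values bear on how the members were chosen, so no test was made. The fetal LMPP list was also the shortest: it held 37156 distinct peaks, of which 6.34% stood alone, while 14.3% of 48286 fetal HSC peaks, 16.04% of 50579 adult LMPP peaks and 17.9% of 53068 adult HSC peaks stood alone. With every list reduced to its 37156 strongest peaks, a setting chosen after seeing the data, 5150 regions were found only in fetal LMPP, so the number depends on how long the other lists are.

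**Figure D1:**
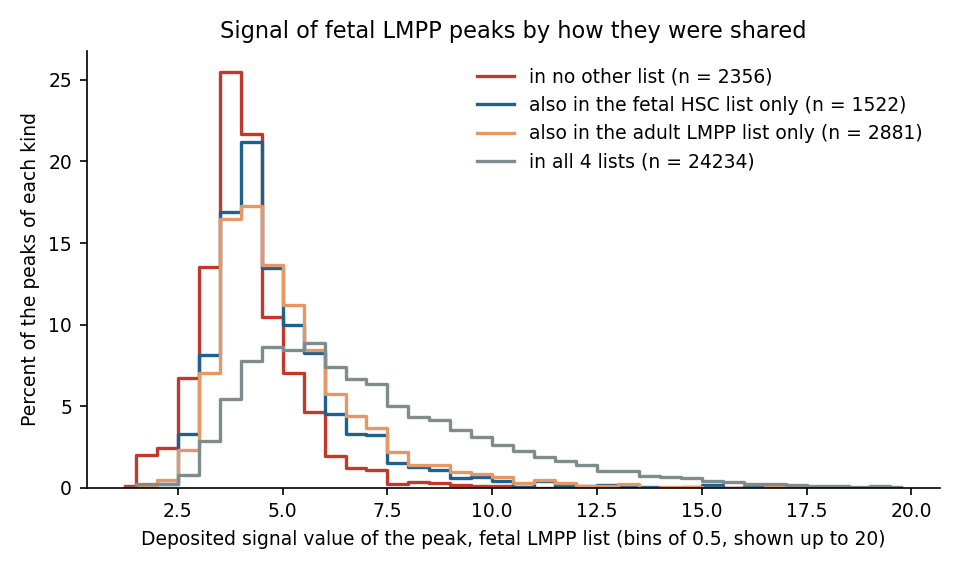
Distribution of the deposited signal value (x axis, the authors' score, bins of 0.5) as a percent of the peaks of each kind (y axis) in the fetal LMPP list. Peaks in no other list (red) lie lowest, with a median of 3.98, and peaks in all 4 lists (grey) reach highest, with a median of 6.45.

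The choice of regions had a sharp edge. A peak of another list lay within 100 bases of 71 regions and within 1 kb of 370 (15.7%), and the smallest gap was 1 base. On the other side of the edge, 8 fetal LMPP peaks were left out for an overlap of 50 bases or less, the smallest of 5 bases. The median gap to the nearest peak of another list was 6767 bases.

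Most of the regions lay away from gene starts. Of the 2356, 137 had their summit within 1 kb of a gene start (5.81%, 95% exact binomial interval 4.90 to 6.84, which covers counting error only), 432 (18.3%) at 1 to 10 kb, 1272 (54.0%) at 10 to 100 kb and 515 (21.9%) beyond 100 kb. The share within 1 kb was 5.71% for regions of the fetal HSC list only, 3.70% for those of the adult LMPP list only, 8.20% for those shared by the 2 fetal lists and 41.8% for those in all 4 lists. The body of a gene held 1141 of the summits (48.4%). Exons and introns were not annotated here.

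**Figure D2:**
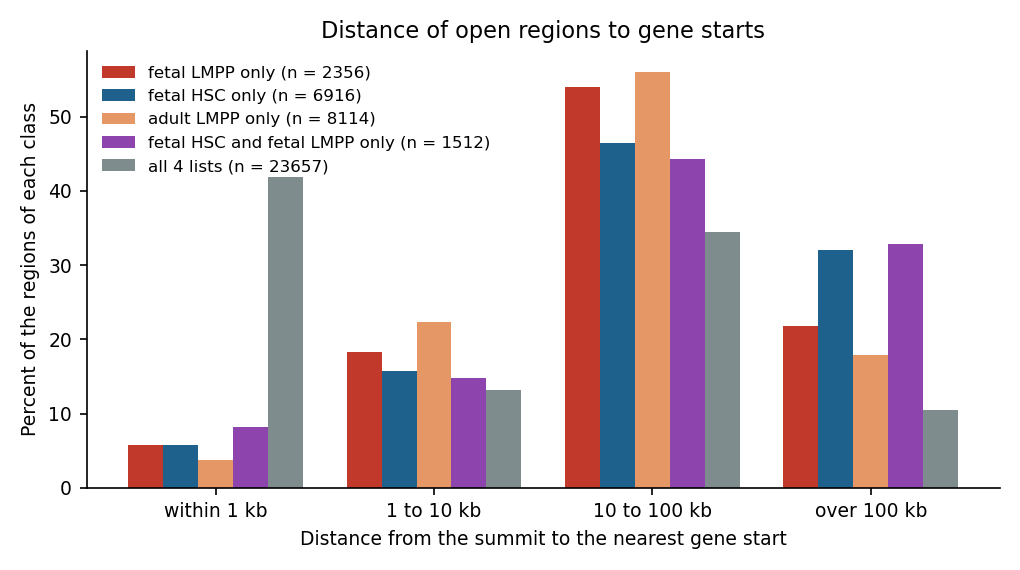
Percent of open regions (y axis) by distance from the summit to the nearest gene start (x axis), for regions of 1 list, of the 2 fetal lists and of all 4 lists. Regions found only in fetal LMPP (red) are within 1 kb of a start in 5.81% of cases, against 41.8% of those in all 4 lists (grey).

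Among the regions, those with a higher signal lay farther from genes. With the regions cut into 4 equal classes by signal, the share within 1 kb of a start was 10.5% in the lowest class, 4.92% and 5.43% in the middle classes and 2.38% in the highest, and the median distances from lowest to highest were 17308, 27443, 35836 and 44485 bases. None of the 30 regions of highest signal lay within 1 kb of a start, and 17 of them lay beyond 100 kb. The 30 highest regions of the fetal HSC list only and of the adult LMPP list only likewise held none within 1 kb, with 25 and 11 beyond 100 kb. The highest was chr6:110020023-110020564 (signal 17.2), in no gene body, with the start of Grm7 625 kb away.

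The genes nearest to the few strongest regions mostly had few or no counts. Over the whole highest signal class, 243 of 411 nearest genes had enough counts to be tested, beside 14720 of all 25124 genes. The 10 strongest regions with a gene other than a predicted one within 100 kb were taken, which ranked 5 to 35 by signal among all the regions. Of their genes, Sulf1 (region chr1:12754446-12754982, signal 10.5), Cntnap5b (chr1:99811944-99812722, signal 10.03), Tnp1 and Wasf3 were at 0 counts in all 11 libraries. Sgcd (chr11:47459857-47460550, signal 10.1) was at 0 in 10 of the 11. Smarcal1, a DNA annealing helicase, was at 44.6, 39.6 and 47.4 CPM (counts scaled to the total of the library) in fetal LMPP and 37.5, 31.7 and 29.2 in adult LMPP (edgeR adjusted p = 0.105). For Pla2g4a, which encodes a cytosolic phospholipase, a region in its body (chr1:149953738-149954333, signal 8.74) stood beside 182, 113 and 113 CPM in fetal LMPP and 82.3, 76.9 and 95.9 in adult LMPP. Its rise of 0.68 ± 0.20 (log2, SE) had an adjusted p of 0.048, and 10 of 12 alternative fits lost the call, among them leaving out any of the 6 LMPP libraries.

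Some regions came in groups. A gene was nearest to 2 or more regions at 139 of the 1666 genes with a region within 100 kb, and to 3 or more at 19. C130026I21Rik had 9 regions over 99.9 kb of chromosome 1, with signals of 2.03 to 3.10. Pisd-ps1, a pseudogene of a phospholipid enzyme, had 7 regions over 39.2 kb of chromosome 11, with signals of 1.48 to 3.38. 2610005L07Rik had 6, and A530032D15Rik and Gm21190 had 5 each. Several of these genes have near-identical copies, where reads can be placed on the wrong copy, so their regions and RNA are uncertain. Chromosome 5 held 201 regions, 4.28 for every 100 merged regions on it, and chromosome X held 33, or 1.64.

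RNA was not used to choose the regions, so the genes beside them could be tested. Depth ran from 19.8 to 64.78 M counts per library. The RNA of the gate genes was in part below that of adult LMPP. In fetal LMPP Flt3 stood at 469, 496 and 512 CPM, against 1064, 950 and 908 in adult LMPP (-0.99 ± 0.18 log2, SE; edgeR adjusted p = 0.00529), and Ly6a, which encodes Sca-1, at 24.8, 15.4 and 17.8, against 49.0, 82.4 and 69.2 (-1.79 ± 0.31, adjusted p = 0.00412). Fetal LMPP had Cd48 at 398, 271 and 284, Kit at 280, 474 and 526, and Slamf1 (CD150) at 0, 0 and 0.722. Adult HSC 3, adult LMPP 3 and fetal LMPP 1 stood apart together: their deviations from their group means correlated at r = 0.278 to 0.472 across genes, which are not independent replicates. Summed over fixed marker lists, T and NK cell markers (5 genes, mostly Nkg7, with Cd3e and Ncr1 at 0) reached 38.8 to 52.2 CPM in fetal and 258 to 366 in adult LMPP, hepatocyte markers (7 genes, mostly Trf) 66.6 to 154 and 219 to 282, erythroblast markers (6 genes, with Slc4a1 at 0) 85.9 to 275 and 36.6 to 48.8, and neutrophil markers (6 genes) 5.39 to 29.3 and 0.455 to 0.981. Mast cell and basophil markers (5 genes, with Fcer1a and Ms4a2 at 0 in fetal LMPP) reached 4.29 to 9.65 and 19.7 to 74.7, macrophage markers (7 genes, with Vsig4 at 0) 2.79 to 6.42 and 6.30 to 13.7, B cell markers (5 genes, mostly Cd79b, with Ms4a1 at 0) 64.3 to 83.2 and 60.4 to 87.6, and endothelial markers (6 genes, mostly Emcn, with Lyve1 at 0) 21.8 to 34.2 and 17.96 to 27.7. By call, 2 of the 7 hepatocyte markers were higher and 1 was lower in fetal than in adult LMPP, unlike the direction of their sum. The part of all these marker cells in the results was not tested. In bulk samples fewer cells of a type and less RNA per cell cannot be told apart.

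Genes that differed between fetal and adult LMPP lay near the regions in both directions. Of 1056 tested genes that were nearest to a region within 100 kb, 93 were higher in fetal LMPP (8.81%, against 7.08% of all 14720 tested genes) and 94 were lower (8.90%, against 8.29%), by edgeR's quasi-likelihood test at an adjusted p under 0.05. Within 10 kb the counts were 40 higher (11.3%) and 31 lower (8.78%) of 353 genes, and within 1 kb 7 higher (8.24%) and 8 lower (9.41%) of 85. The number called moved with single libraries: 52 genes were higher without adult LMPP 1 (4.92%, against 3.82% of all genes), 57 without fetal LMPP 2 (5.41%, against 4.19%) and 58 without fetal LMPP 3 (5.50%, against 4.69%). Without fetal LMPP 2, 62 were lower (5.89%, against 5.09%). Without the 3 libraries that stood apart, 191 of 1036 were higher (18.4%, against 15.2% of all genes) and 160 lower (15.4%, against 15.3%).

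Against fetal HSC, 104 of the 1056 genes were higher in fetal LMPP (9.85%, against 8.21% of all genes) and 105 were lower (9.94%, against 9.85%). Within 10 kb 41 were higher (11.6%) and 39 lower (11.05%) of 353. Both this and the preceding comparison use the fetal LMPP libraries. With 1 of the 2 fetal HSC libraries left out, the genes higher were 36 without replicate 1 (3.29%, against 2.22% of all genes) and 27 without replicate 2 (2.48%, against 1.39%). Those lower were 35 (3.20%, against 3.92%) and 25 (2.3%, against 2.53%). Without fetal LMPP 2, 66 were higher (6.27%, against 4.56%) and 52 lower (4.94%, against 6.00%). Without the 3 libraries that stood apart, 204 were higher (19.7%, against 17.9%) and 215 lower (20.8%, against 20.6%).

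**Figure D3:**
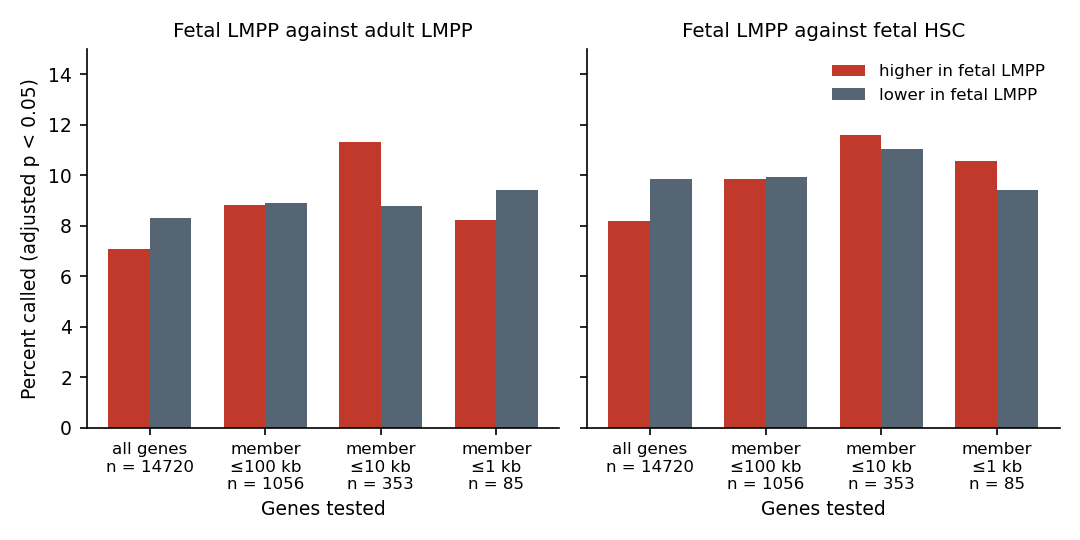
Percent of tested genes called higher (red) or lower (grey) in fetal LMPP (y axis, edgeR adjusted p under 0.05), for all genes and for genes nearest to a fetal LMPP-only region within 100, 10 and 1 kb (x axis). In the left panel 8.81% of genes within 100 kb and 11.3% within 10 kb were higher, against 7.08% of all genes.

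These shares showed no order by the signal of the region. Genes higher in fetal than adult LMPP were 9.20% of those nearest to a region of the lowest signal class, 8.19% and 10.5% in the middle classes and 9.47% in the highest. For comparison, 8.34% of the 2254 genes nearest to regions of the fetal HSC list only were higher and 8.25% lower. The shares were 11.6% and 8.57% of the 502 genes nearest to regions shared by the 2 fetal lists. They were 6.43% and 11.2% of the 3345 genes nearest to regions of the adult LMPP list only. These shares are descriptions, and the sets share genes.

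The fixed gene lists give the members by role. Among 15 regulators of the fetal state, 3 were nearest to a region, and those 3 rose in fetal LMPP against adult LMPP, as did 12 of the 14 tested genes of the list (0 fell). Against fetal HSC 0 of the 3 rose and 1 fell, and 2 rose and 4 fell over the list. Among 35 lymphoid genes 6 were nearest to a region: 3 were higher and 0 lower against adult LMPP, and 5 higher against fetal HSC. Of the 31 tested genes of that list 6 rose and 4 fell against adult LMPP, and 12 rose and 2 fell against fetal HSC. Of 5 cytokine receptors near a region, 3 fell against adult LMPP, as did 7 of the 28 tested genes of the list (2 rose). Against fetal HSC 1 of the 5 rose and 1 fell, and 9 rose and 3 fell over the list. Of 4 stem cell regulators, 1 fell against adult LMPP and 2 against fetal HSC, and of 5 inflammatory and early response genes, 1 and 2. The myeloid list had 2 genes near a region (1 fell against adult LMPP, 1 rose against fetal HSC), the adhesion and homing list 3 (1 and 3 rose), the cell cycle list 2 (1 rose against adult LMPP, 1 fell against fetal HSC), the chromatin list 1 (it rose against adult LMPP) and the erythroid and megakaryocyte list 1 (not called). Over these whole lists the genes that rose and fell against adult LMPP were 3 and 3 of 23 stem cell regulators, 1 and 5 of 24 inflammatory, 1 and 5 of 28 myeloid, 3 and 5 of 27 adhesion and homing, 3 and 2 of 19 cell cycle, 3 and 1 of 21 chromatin, and 4 and 1 of 24 erythroid and megakaryocyte genes tested. Against fetal HSC they were 0 and 15, 3 and 4, 9 and 3, 9 and 4, 5 and 1, 1 and 3, and 0 and 15 in the same order. No gene of the antigen presentation list, of which 19 of 20 fell against adult LMPP, and none of the growth and glycolysis list, of which 12 of 21 rose, was nearest to a region.

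Lin28b encodes an RNA-binding protein that blocks maturation of let-7 microRNAs. Its CPM were 27.7, 47.6 and 35.2 in fetal LMPP, 0 in all 3 adult LMPP libraries, 29.5 and 21.0 in fetal HSC and 0.793, 0.195 and 0.150 in adult HSC. The fetal libraries of both cell types were high and no adult library overlapped them. Fetal LMPP were at least 331-fold higher than adult LMPP, taking 3 counts per adult library as the floor (edgeR adjusted p = 0.000195). Against fetal HSC the difference was 0.55 ± 0.57 (log2, SE; adjusted p = 0.547). The locus (chr10:45376619-45470201, minus strand) had 4 open regions, and all 4 held a fetal LMPP peak: 2 were in every list and 2 in fetal LMPP only, one 3.601 kb upstream of the start (chr10:45473680-45473972, signal 3.87) and one 15.9 kb inside the gene (chr10:45453990-45454431, signal 3.803).

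Igf2bp2, an mRNA-binding protein of the fetal program, showed 100, 117 and 134 CPM in fetal LMPP, 2.37, 2.83 and 2.91 in adult LMPP, 205 and 240 in fetal HSC and 17.5, 18.2 and 11.2 in adult HSC. The rise over adult LMPP was 5.42 ± 0.25 (log2, SE; edgeR adjusted p = 1.49e-06). Its level was lower than in fetal HSC by -0.93 ± 0.22 (adjusted p = 0.0187), a call that leaving out either fetal HSC library, fetal LMPP 1 or fetal LMPP 2 ended. The region found only in fetal LMPP (chr16:22161252-22162276, signal 2.77) lay 1.59 kb inside the gene, 49 bases from the region over the start. That start region was in the fetal LMPP, fetal HSC and adult HSC lists and not in that of adult LMPP.

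Hmga2 encodes a chromatin protein that is itself a let-7 target. It was at 135, 276 and 206 CPM in fetal LMPP and 16.3, 10.7 and 8.58 in adult LMPP, with no overlap, and at 109 and 131 in fetal HSC and 3.39, 3.84 and 1.43 in adult HSC. The rise over adult LMPP was 4.12 ± 0.42 (log2, SE; edgeR adjusted p = 0.000224). Its region (chr10:120525079-120525440, signal 4.61) lay 48.7 kb upstream, 1525 bases from a region of the adult HSC list.

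**Figure D4:**
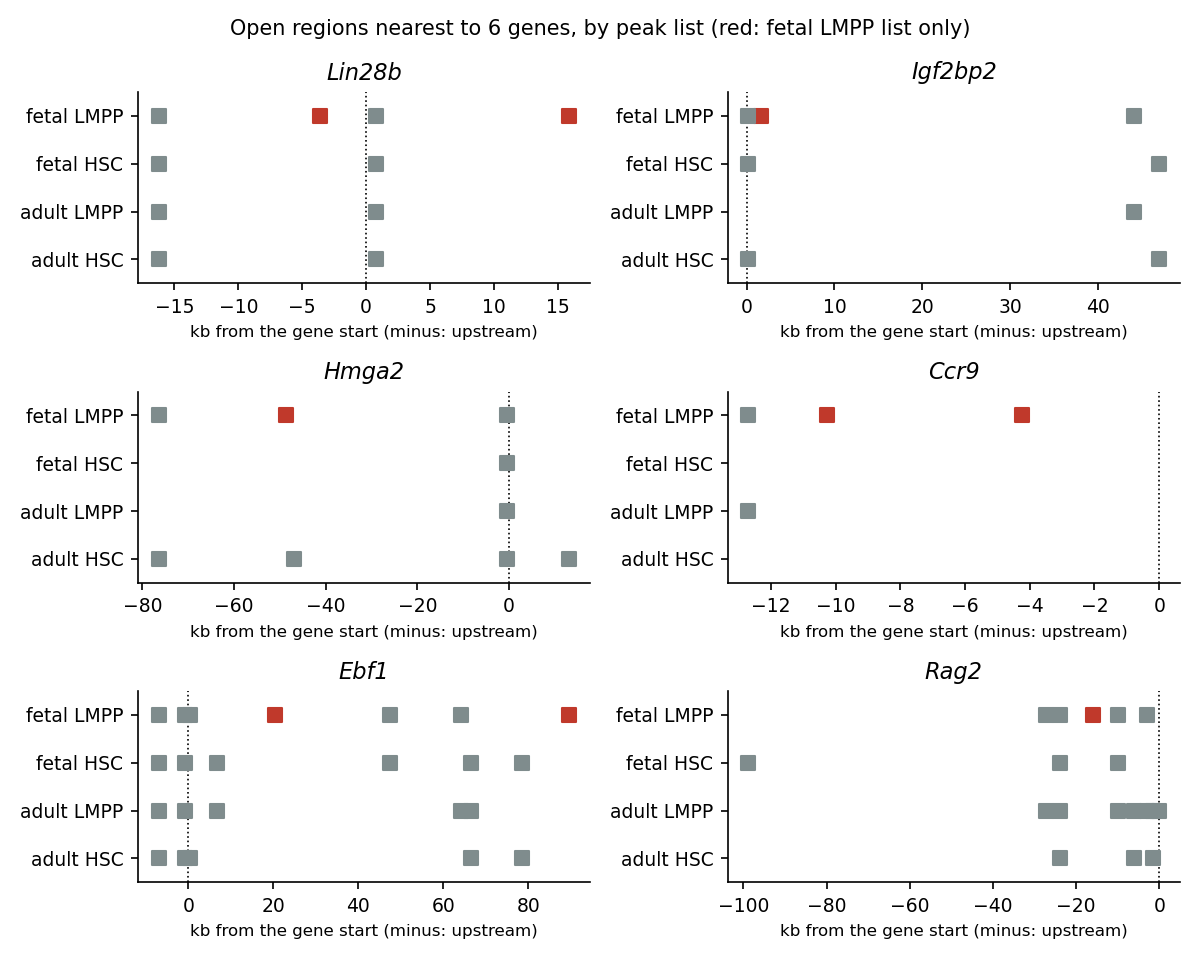
Open regions nearest to 6 genes by peak list (y axis), at their distance in kb from the gene start (x axis, minus is upstream), with regions found only in fetal LMPP in red and others in grey. At Ccr9 the 2 red regions stand beside 1 region shared with adult LMPP, and at Lin28b 2 red regions stand beside 2 in every list.

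Other genes that rose in fetal LMPP had regions of this kind. Id1, an inhibitor of E proteins (the basic helix-loop-helix factors that drive lymphoid genes), was at 34.5, 28.6 and 34.0 CPM in fetal LMPP and 0.455, 0.168 and 0.327 in adult LMPP, a rise of 6.72 ± 0.38 (log2, SE; edgeR adjusted p = 7.68e-06). Its regions lay 12.2 kb upstream (chr2:152723932-152724253) and 3.32 kb downstream of the start (chr2:152739396-152739669). Fscn1, which encodes the actin-bundling protein fascin, was at 30.8, 96.9 and 89.4 against 0.455, 1.32 and 0.0327 CPM (6.85 ± 1.03, adjusted p = 0.00188), but its region lay in the body of Rnf216. In fetal HSC Fscn1 was at 74.4 and 87.1 CPM, and the 2 fetal groups did not differ by call (edgeR adjusted p = 0.925). Col18a1, a basement membrane collagen, was at 26.7, 21.7 and 37.4 CPM against 0 in all 3 adult LMPP libraries, at least 257-fold higher (adjusted p = 0.00569), and its levels in fetal HSC were 223 and 249. Cdh17, a cadherin of the gut and of early B lineage cells, was at 23.3, 20.03 and 25.1 CPM in fetal LMPP, 1.21, 0.280 and 0.426 in adult LMPP, 0.315 and 0 in fetal HSC, and 0 in adult HSC. It was therefore higher than in either neighbour, by 5.21 ± 0.88 over adult LMPP (adjusted p = 0.0061) and 7.34 ± 1.21 over fetal HSC (adjusted p = 0.00553), with a region 6.75 kb inside the gene (chr4:11764768-11765142).

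Cdkn1c, an inhibitor of cyclin-dependent kinases that restrains stem cell division, was at 43.5, 18.8 and 32.3 CPM in fetal LMPP, 5.31, 4.90 and 4.39 in adult LMPP, 110 and 129 in fetal HSC and 58.9, 55.8 and 101 in adult HSC. It rose over adult LMPP by 2.70 ± 0.34 (log2, SE; edgeR adjusted p = 0.000683) and was lower than in fetal HSC (-1.92 ± 0.34, adjusted p = 0.00486, and 0.0508 without fetal HSC 2). The region was 45.8 kb from its start, in the body of Kcnq1, and 290 bases from a peak of another list. Dnmt3a, a DNA methyltransferase, was at 145, 186 and 178 CPM against 68.3, 86.8 and 38.3 in adult LMPP (1.40 ± 0.34, adjusted p = 0.0196), a call that leaving out adult LMPP 1, fetal LMPP 2 or fetal LMPP 3 ended (0.0547 to 0.0638). In fetal HSC Dnmt3a was at 228 and 277 CPM.

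Lymphoid genes nearest to a region that were higher in fetal LMPP than in fetal HSC included Ccr9, Rag2, Ccr7 and Ebf1. Ccr9, the receptor that guides progenitors to the thymus, was at 55.8, 59.3 and 75.4 CPM in fetal LMPP, 20.01, 8.38 and 11.2 in adult LMPP, 0 in both fetal HSC libraries and 0.349, 0.0651 and 0 in adult HSC. It was at least 664-fold higher in fetal LMPP than in fetal HSC (edgeR adjusted p = 0.000791). Against adult LMPP the groups did not overlap, but the adjusted p of 0.0389 for a rise of 2.27 ± 0.63 (log2, SE) became 0.0647 to 0.117 when any of the 6 LMPP libraries was left out. Ccr9 had 3 open regions, all upstream: 1 shared with adult LMPP 12.7 kb away and the 2 found only in fetal LMPP, at 10.3 kb (chr9:123756734-123757135, signal 4.79) and 4.24 kb (chr9:123762836-123763517, signal 4.40).

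Rag2, a subunit of the recombinase of antigen receptor genes, was at 46.6, 59.1 and 47.7 CPM in fetal LMPP and 51.8, 39.5 and 65.6 in adult LMPP, which overlapped (-0.03 ± 0.56 log2, SE; edgeR adjusted p = 0.99). It was at 0 in both fetal HSC libraries, and fetal LMPP were at least 535-fold higher (adjusted p = 0.000713). Its region (chr2:101608353-101608885, signal 6.34) lay 16.03 kb upstream, in the body of B230118H07Rik. Ccr7, a homing receptor, was at 19.9, 21.2 and 21.9 CPM in fetal LMPP, 13.5, 16.4 and 14.4 in adult LMPP and 0.0393 and 0 in fetal HSC. Fetal and adult LMPP did not overlap, but their difference was not called (0.51 ± 0.42 log2, SE; adjusted p = 0.466), while the difference from fetal HSC was (10.1 ± 0.89, adjusted p = 0.000204).

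Ebf1, a transcription factor that commits cells to the B lineage, was low but higher in fetal LMPP: 5.88, 8.35 and 7.22 CPM against 1.01, 0.784 and 0.655 in adult LMPP, 0 and 0.268 in fetal HSC and 0 in adult HSC. The rise over fetal HSC was 5.58 ± 1.05 (log2, SE; edgeR adjusted p = 0.00947). That over adult LMPP, 3.13 ± 0.77 (adjusted p = 0.0278), was lost when any of the 6 LMPP libraries was left out (0.0518 to 0.0876) and with the replicate number as a block (0.0568). Its regions were 20.3 kb (chr11:44638262-44638612) and 89.7 kb (chr11:44707466-44707941) inside the gene.

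St8sia1, a sialyltransferase that makes gangliosides, had 3 regions, 1 of them over its start (chr6:142963373-142964479). Its CPM were 10.98, 12.9 and 14.2 in fetal LMPP, 1.92, 0.588 and 3.14 in adult LMPP and 0.354 and 0.926 in fetal HSC. The rise over adult LMPP of 2.75 ± 0.63 (log2, SE; edgeR adjusted p = 0.0205) was lost without adult LMPP 1, fetal LMPP 2 or fetal LMPP 3 (0.0583 to 0.0743). Against fetal HSC it was 4.28 ± 0.80 (adjusted p = 0.00935), lost without either fetal HSC library (0.0751 and 0.0529).

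**Figure D5:**
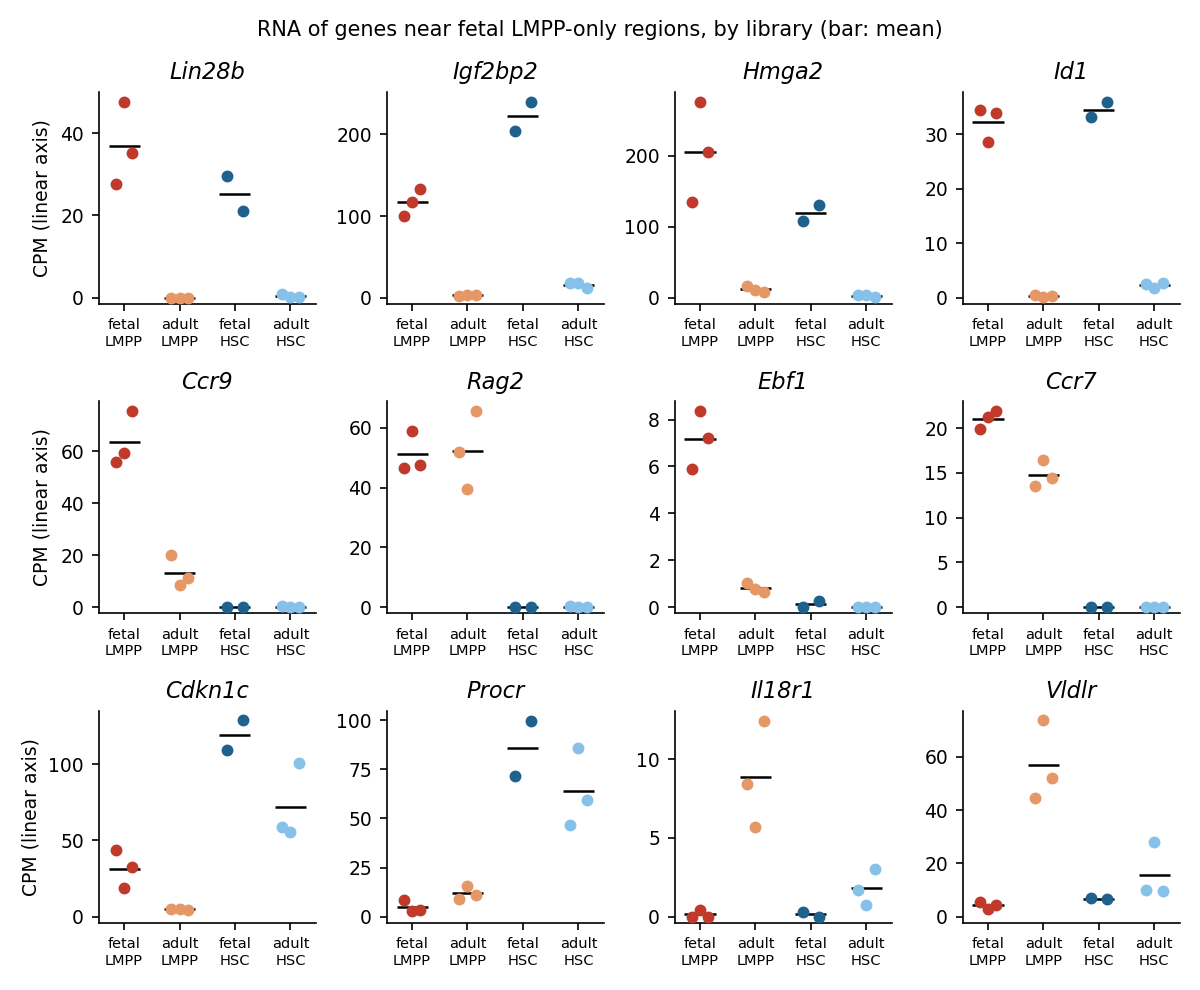
RNA of 12 genes near regions found only in fetal LMPP, in CPM on a linear axis (y axis) by group (x axis), with each library a point and the group mean a bar. Lin28b, Hmga2 and Id1 are high in both fetal groups, Rag2 overlaps between the 2 LMPP groups, and Procr and Il18r1 are low in fetal LMPP.

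Regions found only in fetal LMPP also lay beside genes that were low there. Il18r1, a receptor chain for interleukin-18, had a region over its start (chr1:40465432-40466107, signal 4.15) and was at 0, 0.406 and 0 CPM in fetal LMPP against 8.44, 5.69 and 12.4 in adult LMPP. The fall was -6.12 ± 1.44 (log2, SE; edgeR adjusted p = 0.0174, and 0.0554 without fetal LMPP 3). Procr, the endothelial protein C receptor and a marker of HSC, had its start inside a region found in fetal LMPP alone (chr2:155751082-155751876, signal 3.22), whose nearest peak of another list was 3876 bases away. Its CPM were 8.44, 2.88 and 3.31 in fetal LMPP, 8.79, 15.5 and 11.03 in adult LMPP, 71.7 and 99.9 in fetal HSC and 46.4, 85.7 and 59.4 in adult HSC. It was lower in fetal LMPP than in fetal HSC by -4.12 ± 0.48 (adjusted p = 0.000713), with no overlap.

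Gbp10, an interferon-induced GTPase, had a region 274 bases upstream of its start (chr5:105239697-105240004) and was at 0.533, 0 and 0.085 CPM against 9.30, 21.4 and 56.9 in adult LMPP (-6.84 ± 0.98 log2, SE; edgeR adjusted p = 0.00144). It belongs to a cluster of similar genes, so its counts are uncertain. Irgm2, another interferon-induced GTPase, was at 14.3, 15.7 and 17.8 against 41.3, 49.6 and 30.7 (-1.35 ± 0.26, adjusted p = 0.00639). Mdga1, a cell surface glycoprotein, was at 6.47, 4.66 and 13.0 against 40.1, 39.2 and 17.8 (-2.01 ± 0.45, adjusted p = 0.0136, and 0.0524 without fetal LMPP 2). By contrast Set, a histone chaperone whose promoter is printed above with theirs, was at 1350, 1543 and 1467 CPM against 898, 932 and 711 in adult LMPP (0.78 ± 0.14, adjusted p = 0.00465).

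Some cytokine receptors and other genes near a region were also lower in fetal than in adult LMPP. Csf2ra, the alpha chain of the GM-CSF receptor, was at 10.1, 13.9 and 12.9 CPM in fetal LMPP and 25.6, 25.3 and 29.9 in adult LMPP (-1.13 ± 0.20 log2, SE; edgeR adjusted p = 0.00491). Crlf2, the receptor for thymic stromal lymphopoietin, was at 8.45, 9.83 and 14.4 against 34.5, 31.9 and 23.7 (-1.46 ± 0.25, adjusted p = 0.00384). Lmo2, an adaptor of hematopoietic transcription complexes, was at 389, 307 and 285 against 776, 785 and 813 (-1.28 ± 0.14, adjusted p = 0.000394), with a region 7.80 kb inside the gene. Vldlr, a lipoprotein receptor, was at 5.35, 3.03 and 4.25 against 44.6, 73.7 and 52.1 (-3.75 ± 0.46, adjusted p = 0.000635), with a region 75.9 kb upstream of its start. Fetal and adult LMPP did not overlap for any of these 4 genes. This is a description, because the largest called changes were named only where the libraries did not overlap. The same holds for the lack of overlap at Lin28b and Hmga2 above.

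Against fetal HSC, Tgfbr3, a co-receptor for transforming growth factor beta, was at 2.47, 2.66 and 6.29 CPM in fetal LMPP and 93.4 and 66.4 in fetal HSC (-4.41 ± 0.75 log2, SE; edgeR adjusted p = 0.00407), with regions 76.1 kb inside the gene and 5.76 kb upstream. Meg3, an imprinted noncoding RNA linked to fetal stem cells, was at 0.835, 0.296 and 1.27 against 24.6 and 24.9 (-4.95 ± 0.60, adjusted p = 0.000791), with its region 28.2 kb upstream (chr12:109512280-109512900). Adult HSC also held more Meg3, at 10.5, 16.5 and 9.57 CPM, than adult LMPP at 0, 0.056 and 0. Low as it was, Meg3 was called higher in fetal than in adult LMPP (4.93 ± 0.83, edgeR adjusted p = 0.00346).

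The age difference of a gene differed between LMPP and HSC for 4 genes near a region in the direction of a larger rise in LMPP (0.379%, against 0.387% of all genes) and for 12 in the other direction (1.14%, against 0.543%). With the replicate number as a block they were 2 (0.189%, against 0.279%) and 6 (0.568%, against 0.306%). The counts were 1 (0.0915%, against 0.0909%) and 2 (0.183%, against 0.201%) without fetal HSC 1, and 1 (0.0918%, against 0.0524%) and 2 (0.184%, against 0.157%) without fetal HSC 2. They were 8 (0.761%, against 0.452%) and 14 (1.33%, against 0.712%) without adult HSC 3, and 3 (0.287%, against 0.286%) and 8 (0.765%, against 0.293%) without adult HSC 1. Leaving out adult LMPP 1 gave 3 (0.284%, against 0.210%) and 6 (0.568%, against 0.224%), adult LMPP 2 gave 6 (0.570%, against 0.389%) and 8 (0.760%, against 0.362%), and adult LMPP 3 gave 8 (0.761%, against 0.444%) and 10 (0.951%, against 0.478%). Leaving out fetal LMPP 1 gave 6 (0.570%, against 0.376%) and 14 (1.33%, against 0.581%), fetal LMPP 2 gave 5 (0.475%, against 0.353%) and 7 (0.665%, against 0.326%), and fetal LMPP 3 gave 2 (0.190%, against 0.292%) and 6 (0.569%, against 0.353%). Without the 3 libraries that stood apart they were 35 (3.38%, against 2.29%) and 46 (4.44%, against 3.18%). With DESeq2 they were 31 (3.00%, against 2.11%) and 31 (3.00%, against 2.52%).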

How the data were processed

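Peak lists and a gene count table were used as deposited. The authors' ATAC-seq peak lists hold, per the file headers and labels, a signal value, a −log10 q and a score per peak. The names of the lists carry a mapping quality of 10 and an irreproducible discovery rate of 0.1. They also carry the letters ppr, which were not interpreted here. No source used here says whether the 2 libraries of a population were pooled. The deposited expected counts per gene (22.5% of values not whole) were rounded. The submitters' processing notes name MACS2, Bowtie2 2.3.5, SAMtools 1.9 and Picard, STAR with RSEM, HOMER, DESeq2 and Trim Galore, and the builds mm10, NCBIM37 and GRCm38.p5. Coordinates are 1-based on mm10, the build of the count table. That the peaks share it was checked against RefSeq promoters: 35.2% lay under a region of all 4 lists.

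A region was paired with the nearest gene start within 100 kb of its summit. This pairing does not identify a target gene. Of 25124 genes, 14720 passed edgeR's filter on low counts. edgeR 4.0.16 (R 4.3.3) fitted a quasi-likelihood model of 4 groups to all 11 libraries with TMM scaling, Benjamini-Hochberg adjustment and a threshold of 0.05; the common biological coefficient of variation was 0.372. CPM are scaled by TMM. The SE printed with a log2 difference is its absolute size divided by the square root of the F value of the test. For genes near 0 counts in a group, the log2 difference and this SE depend on the prior count. On simulated counts for fetal against adult LMPP, 83 of 100 genes changed 4-fold and 28 of 100 changed 2-fold were called, with 1 of 14170 unchanged genes. These rates describe the simulated counts only. Whether they hold for the deposited libraries, some of which had correlated deviations, was not tested. The same limit applies to genes near 0 counts in a group.

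Genes named were those near the 10 regions of highest signal that had a gene other than a predicted one within 100 kb (ranks 5 to 35), the 8 with most regions, the largest called changes (group mean from 5 CPM, libraries not overlapping), up to 3 per gene list by p and the gate genes, leaving out predicted genes; genes with a region over their promoter were added after their values were seen. Members and lists were chosen with earlier results of these data known. Deviations of same-numbered libraries correlated at r = 0.153, 0.306 and 0.472 between adult HSC and adult LMPP, which meets the rule that every r be over 0.1. Different-numbered libraries of these groups ran from -0.372 to 0.216. Adult HSC 1 correlated more with adult LMPP 2 (0.216) than with adult LMPP 1 (0.153), so these values do not settle a pairing by number. Same-numbered libraries correlated at -0.138, 0.081 and -0.167 between adult and fetal LMPP, and at -0.016 and -0.061 between fetal HSC and fetal LMPP. The number was no block in the main fits. A fit with the replicate block is given beside the interaction, which uses both adult groups. Alternatives included DESeq2 1.42.0, other scaling, no filter, a replicate block and leaving out each library. Sequences of regions away from promoters were not analysed here. 1 gene that the rule names is not reported here.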

Additional observations from a re-analysis of the deposited data

Results flagged for a closer look

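For 9 named genes the difference between fetal and adult cells differed between LMPP and HSC in the interaction test (edgeR, adjusted p under 0.05). A positive log2 value means a more positive fetal-minus-adult difference in LMPP. Among genes near a region found only in fetal LMPP, Id1 had 2.81 (adjusted p = 0.0222), Bcl2l1, a survival factor, 1.63 (0.0378) and Sh2b2, an adaptor of receptor kinases, 2.67 (0.0168). Foxd2os had -3.36 (0.0354), Pisd-ps1 -1.37 (0.0209) and Ddx4, a germ cell RNA helicase, -5.38 (0.0168). Between fetal and adult LMPP themselves Ddx4 was not called (-0.79 log2, edgeR adjusted p = 0.366). Its CPM were 35.2 and 37.2 in fetal HSC and 0.444, 2.67 and 1.40 in adult HSC.

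Icos, a T cell co-stimulator, had -8.11 (adjusted p = 0.00637), and Kmo, an enzyme of tryptophan breakdown, had -9.30 (0.00298), with 0 counts in all 3 adult HSC libraries at both genes. These 2 sizes depend on the prior count of the fit and are no bounds. Neither gene was called between fetal and adult LMPP, where Icos differed by 0.38 (log2, edgeR adjusted p = 0.518) and Kmo by 0.46 (0.422). Flt3, a gate gene with no such region nearest to it, had -2.11 (0.00702).

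The calls of Bcl2l1, Ddx4, Foxd2os, Id1, Pisd-ps1 and Sh2b2 were lost in 4 to 10 of 16 alternative fits, in each case also when either fetal HSC library was left out (adjusted p from 0.0554 to 0.242). The replicate block ended 5 of these 6 calls, with an adjusted p of 0.0977 for Bcl2l1, 0.0507 for Ddx4, 0.0827 for Foxd2os, 0.0556 for Pisd-ps1 and 0.0507 for Sh2b2. The calls of Icos, Kmo and Flt3 were kept in every alternative fit.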

How the results depend on the processing

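The number of regions found only in fetal LMPP was 2119 to 2740 under a 500-base gap, a stricter overlap or a −log10 q of at least 5, 214 among the upper peaks by signal of the fetal LMPP list, and 5150 with lists of equal length. Within 10 kb, 40 genes near a region were higher against adult LMPP (11.3%, against 7.08% of all genes) and 31 lower (8.78%, against 8.29%). Against fetal HSC they were 41 (11.6%, against 8.21%) and 39 (11.05%, against 9.85%), and 5 were lower in the interaction (1.42%, against 0.543%). With the gene body as the link, 59 were higher (7.96%) and 69 lower (9.31%) against adult LMPP. Against fetal HSC, 63 were higher (8.50%) and 85 lower (11.5%) by that link. Fewer genes are tested there. Fitting only the groups compared gave 168 higher (16.9%, against 15.2% of all genes) and 144 lower (14.4%, against 13.8%) against fetal HSC. Without adult HSC 3, adult LMPP 3 and fetal LMPP 1 the counts were 191 and 160, 204 and 215, and 35 and 46 in the interaction. In the interaction DESeq2 gave 31 and 31 and the replicate block 2 and 6. Regions with no other peak within 1 kb gave 2 higher there (0.229%, against 0.387% of all genes). Against adult LMPP the replicate block gave 87 higher (8.24%, against 6.57%) and 85 lower (8.05%, against 7.55%). Against fetal HSC it gave 91 higher (8.62%, against 6.71%) and 74 lower (7.01%, against 7.58%). Leaving out 1 library gave 52 to 73 and 62 to 91 against adult LMPP, 27 to 79 and 25 to 80 against fetal HSC, and 1 to 8 and 2 to 14 in the interaction. The share called among all genes moved between these fits as well. The most called higher over adult LMPP were 73, without adult LMPP 3 (6.95%, against 5.83% of all genes). The most called lower were 91, without fetal LMPP 1 (8.65%, against 7.98%). For fetal HSC the most were 79 higher without fetal LMPP 3 (7.5%, against 6.11%) and 80 lower without fetal LMPP 1 (7.6%, against 8.33%). The cause of these moves was not tested. The share within 1 kb of a start was 5.01% with protein-coding genes alone. Of 80 calls of named genes, 42 were kept in every alternative, 38 were lost in some (12 with the replicate block) and 0 reversed. Motifs around summits, and their wider window, were not run. Each peak list is 1 value per group, so a region missing from another list may be open there below its threshold.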
